A study of Mus musculus with 15 samples.

Results

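Mouse macrophages treated with interleukin 4 (IL-4) were compared directly with macrophages treated with interferon gamma (IFN-γ), gene by gene over the whole transcriptome. The comparison used 6 of the 15 RNA libraries of the study, 3 with IL-4 and 3 with IFN-γ. A library of each cytokine shared its replicate number, and 1 date in the column headings, with a library of the other. Marrow cells of mice aged 8 to 10 weeks had been grown into macrophages for 7 days with M-CSF, the growth factor of these cells, at 10 ng/ml. The IL-4 cultures, which the labels call M2, then received IL-4 at 10 ng/ml, and the IFN-γ cultures, called M1, received IFN-γ at 10 ng/ml. The 3 untreated cultures had M-CSF without a further cytokine. The other 6 libraries, from cultures given heme-albumin, entered the filter on low counts, the scaling and the estimate of the spread but no comparison. Not given in the sources used here were strain, sex, the time under cytokine and whether replicates came from separate animals. The p-values thus reflect only how these cultures spread, which may be technical.

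IL-4 is made by T helper cells, mast cells and eosinophils. Its receptor holds the chains Il4ra and Il2rg or Il13ra1 and activates the transcription factor STAT6, and in macrophages it is known for the alternative programme of arginase, lectins, chitinase-like proteins and fusion genes. IFN-γ is made by T and NK cells, binds Ifngr1 and Ifngr2 and signals through Jak1 and Jak2. In macrophages it is known for the classical programme, with nitric oxide synthase, GTPases that attack intracellular microbes and the machinery of antigen presentation.

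The libraries held 15945686, 18384506 and 28587416 counts with IL-4 (replicates 1 to 3), 16706436, 22494832 and 16398891 with IFN-γ, and 13937722, 15252357 and 8427352 untreated. Replicate 3 with IFN-γ stood apart from its group: 11.2% of tested genes lay at least 2-fold above or below the mean of the other 2. The share was 5.12% and 2.60% for IFN-γ replicates 1 and 2 and at most 0.808% for an IL-4 library. It was low in genes of cell division and in Ccl2 and Ccl7 and high in Cxcl9 and C3, and results that rest on it are given with and without it. The macrophage genes Lyz2, Adgre1, Itgam and Cd68 were abundant in all 6 libraries. The summed level of 14 such genes was 18595 to 25039 CPM (counts scaled by the library's total) with IL-4 and 18184 to 31326 CPM with IFN-γ. Untreated cultures stood above both, at 40994, 46263 and 42262 CPM. Marker lists of other cell types summed to at most 113 CPM in any of the 6 libraries. Neutrophil markers summed to 53.1, 2.39 and 10.6 CPM with IL-4 and 30.7, 2.53 and 40.9 CPM with IFN-γ. T and NK cell markers summed to 1.82, 2.12 and 1.54 CPM with IL-4 and 0, 0 and 0.183 CPM with IFN-γ, and 4 of the 8, Cd3d, Cd3e, Trbc1 and Trbc2, were at 0 in all 6 libraries. In whole cultures, fewer cells of a type and less RNA per cell cannot be told apart.

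Many genes differed between the cytokines, in both directions. Of 25700 counted genes, 11883 passed the filter on low counts, and of these 2892 were higher and 3122 lower with IL-4 than with IFN-γ at an adjusted p under 0.05 (edgeR's quasi-likelihood test, Benjamini-Hochberg), which is 24.3% and 26.3%. Changes are log2 fold changes of IL-4 over IFN-γ ± SE, levels are CPM ± SD, and n = 3 libraries per group throughout. Counts of called list members below are to be read beside the 24.3% higher and 26.3% lower of all tested genes. By at least 2-fold, 1110 genes (9.34%) were higher and 1463 (12.3%) lower, and at least 16-fold differences numbered 167 and 249. On all 3 dates, 2890 of the 2892 higher genes and 2968 of the 3122 lower genes moved in the called direction. The calls came from the same libraries, so much of this agreement follows from the choice of genes. The date differences used CPM without the scaling factors of the calls. Their medians over all tested genes were 0.004, 0.04 and 0.18 for replicates 1 to 3, so the counts of higher and lower genes cannot be set against each other. The median fitted change over all tested genes was -0.01. Against the untreated cultures, 26.8% of tested genes were called with IL-4 and 43.7% with IFN-γ; these comparisons share the same 3 untreated libraries. Of the 1110 genes higher with IL-4 by at least 2-fold, the untreated mean lay between the cytokines for 703, above both for 264 and below both for 143. Of the 1463 lower genes, it lay between for 1108, above both for 137 and below both for 218.

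**Figure D1:**
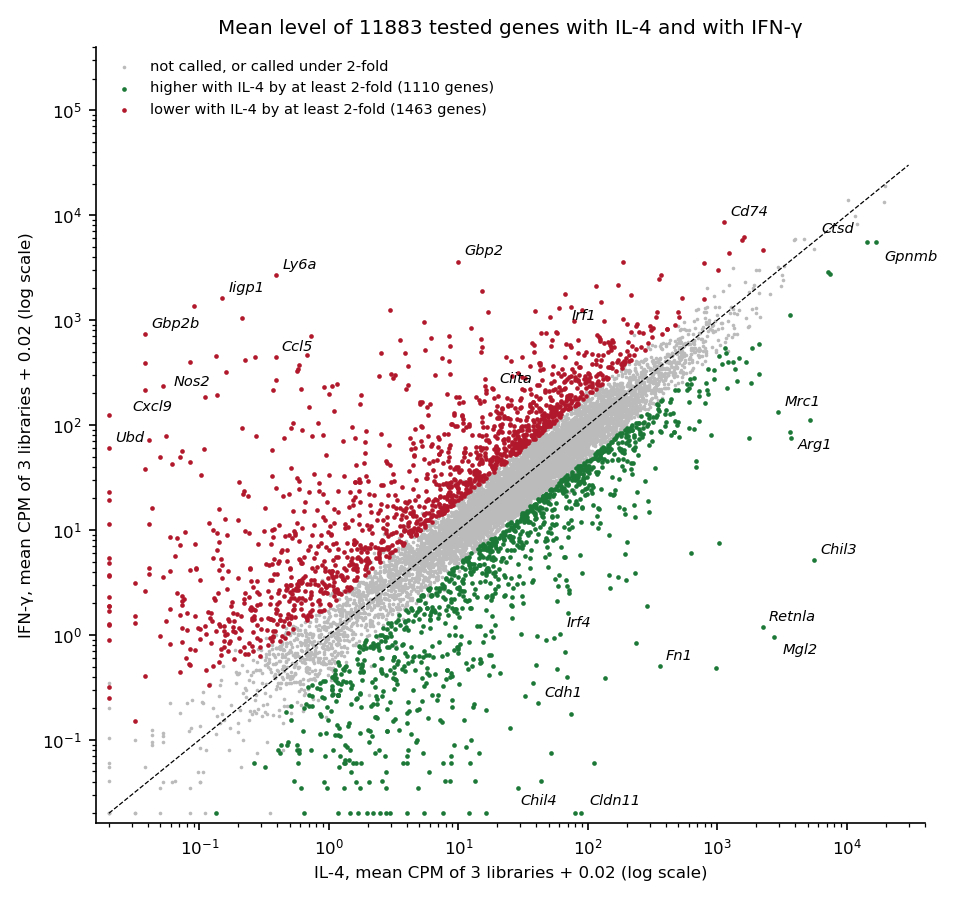
Mean level of each of the 11883 tested genes with IL-4 (horizontal) and with IFN-γ (vertical), in CPM on log axes after adding 0.02, each point a gene and each mean over 3 libraries. The 1110 genes at least 2-fold higher with IL-4 lie below the dashed line of equal levels and the 1463 lower genes above it, with Mgl2, Retnla and Chil3 at the lower right and Gbp2b, Iigp1 and Ly6a at the upper left.

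The 4 marker genes separated the groups without overlap, as did many others. Of all tested genes, 31.7% did so with IL-4 higher and 24.4% with IL-4 lower. Overlap was judged on CPM, without the scaling factors that the calls used. IFN-γ replicate 3 had the lowest factor of the 6 libraries, 0.886, so its CPM lie below its scaled levels. The higher and lower shares without overlap therefore cannot be set against each other or against the called shares. Arg1, the arginase that turns arginine into ornithine (ENSMUSG00000019987, chromosome 10, 24915221 to 24927484), had 4124, 3747 and 3002 CPM with IL-4 and 143, 83.3 and 31.6 CPM with IFN-γ, against 2.58, 0.852 and 0.831 CPM untreated. All IL-4 libraries lay far above the IFN-γ libraries, which in turn lay above the untreated ones, and the change was 5.36 ± 0.46 (adjusted p = 5.13e-07). Mrc1, the mannose receptor (ENSMUSG00000026712, chromosome 2, 14229392 to 14332057), had 2839, 2898 and 3086 CPM with IL-4 and 164, 194 and 39.4 CPM with IFN-γ, against 2447, 1793 and 2173 CPM untreated. The IL-4 and untreated libraries were high and the IFN-γ libraries low, lowest in replicate 3, with a change of 4.44 ± 0.66 (adjusted p = 8.40e-05). Between IL-4 and untreated cultures Mrc1 differed by 0.58 ± 0.57 and did not pass (adjusted p = 0.499).

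Nos2, the inducible nitric oxide synthase (ENSMUSG00000020826, chromosome 11, 78920787 to 78960254), had 0.0627, 0 and 0.0350 CPM with IL-4 and 146, 78.4 and 487 CPM with IFN-γ, against 0.143, 0.590 and 0.119 CPM untreated. It held 2 counts in all with IL-4, and was 6892-fold lower, 95% counting interval 1907 to 56912, or 3366-fold without IFN-γ replicate 3 (adjusted p = 2.54e-06). Cxcl9, a chemokine that draws T cells (ENSMUSG00000029417, chromosome 5, 92321347 to 92328079), had 0, 0.0544 and 0 CPM with IL-4 and 95.5, 55.4 and 494 CPM with IFN-γ, against 0.430, 0.590 and 0.593 CPM untreated. With 1 count in the IL-4 group it was 12381-fold lower, 95% counting interval 2222 to 489065, or at least 2921-fold without IL-4 replicate 2 and 4561-fold without IFN-γ replicate 3 (adjusted p = 5.38e-05). For both genes IFN-γ replicate 3 was the highest library, by several times.

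The 12 rises with the largest fitted fold were mostly genes with no counts, or nearly none, in the other cultures. For a gene at 0 counts the fitted fold is not a measured size, and the bounds of some of the 12 lie below the folds of genes outside them, such as Fn1 and Ccl24. Cldn11, a tight junction protein (ENSMUSG00000037625, chromosome 3, 31149920 to 31164324), had 79.2, 102 and 83.1 CPM with IL-4 and 0, 0 and 0 CPM with IFN-γ, against 0, 0 and 0 CPM untreated, and was at least 1624-fold higher, or at least 967-fold without IFN-γ replicate 2 (adjusted p = 6.49e-09). The chitinase-like gene Chil4 had 93.6, 67.3 and 77.1 CPM with IL-4 and 0, 0 and 0 CPM with IFN-γ, against 0, 0 and 0 CPM untreated, and was at least 1454-fold higher, or at least 866-fold without IFN-γ replicate 2. Its relative Chil3 (also known as Ym1) had 7543, 3267 and 6019 CPM with IL-4 and 2.99, 0.356 and 12.01 CPM with IFN-γ, against 4.95, 1.31 and 0.712 CPM untreated, a change of 9.99 ± 1.07, or 9.40 without IFN-γ replicate 2 and 11.80 without IFN-γ replicate 3. In each of these genes every IL-4 library exceeded every other library.

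Mgl2, a lectin that binds galactose-type sugars, had 2591, 3123 and 2578 CPM with IL-4 and 0.299, 0.356 and 2.13 CPM with IFN-γ, against 11.3, 15.4 and 10.9 CPM untreated (11.49 ± 0.60, or 12.98 without IFN-γ replicate 3, adjusted p = 4.14e-09). Retnla, a secreted resistin-like protein also called Fizz1, had 2943, 1385 and 2377 CPM with IL-4 and 0, 0 and 3.48 CPM with IFN-γ, against 0, 0.0656 and 0 CPM untreated (10.89 ± 1.15, or 10.30 without IFN-γ replicate 1, 10.18 without IFN-γ replicate 2 and at least 29148-fold higher without IFN-γ replicate 3, which leaves 0 counts with IFN-γ, adjusted p = 3.65e-05). All of its IFN-γ counts came from replicate 3. Rnase2a, an eosinophil-type ribonuclease, had 1205, 954 and 796 CPM with IL-4 and 0.419, 0.133 and 0.854 CPM with IFN-γ, against 0, 0.131 and 0 CPM untreated (11.03 ± 0.47, or 11.84 without IFN-γ replicate 3). Genes better known outside macrophages were among the 12: the homeobox gene Msx3 had 114, 109.8 and 111 CPM with IL-4 and 0, 0 and 0.122 CPM with IFN-γ and was 3105-fold higher, 95% counting interval 859 to 25647, or at least 1459.6-fold without IFN-γ replicate 3. The sodium channel subunit Scn3a was 2332-fold higher, 95% counting interval 418 to 92147, or at least 548-fold without IFN-γ replicate 3, at 59.8, 29.6 and 39.9 CPM with IL-4. The potassium channel subunit Kcnd3 had 40.01, 16.8 and 29.6 CPM with IL-4 and 1 count with IFN-γ (1584-fold higher, 95% counting interval 284 to 62618, or at least 314-fold without IFN-γ replicate 2). Msx3, Scn3a and Kcnd3 had no counts in the untreated libraries. The kinase gene Dclk1 (at least 292-fold higher, or at least 174-fold without IFN-γ replicate 2), the retinol carrier Rbp4 (at least 228-fold higher, or at least 136-fold without IFN-γ replicate 2) and the pseudokinase Trib2 (at least 130.5-fold higher, or at least 77.7-fold without IFN-γ replicate 2) completed the 12.

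IFN-γ-inducible GTPases that were nearly silent with IL-4 led the 12 falls with the largest fitted fold. Gbp2b, a guanylate-binding protein (ENSMUSG00000040264, chromosome 3, 142594847 to 142619179), had 0, 0.0544 and 0 CPM with IL-4 and 921, 941 and 324 CPM with IFN-γ, against 0, 0 and 0.119 CPM untreated, and was 47394-fold lower, 95% counting interval 8506 to 1872010.0, or at least 11182-fold without IL-4 replicate 2. Tgtp1 (24338-fold lower, 95% counting interval 4368 to 961324, or at least 5742-fold without IL-4 replicate 2) and Gbp10 (at least 2656-fold lower, or at least 1449-fold without IL-4 replicate 3) are GTPases as well, and so is Gbp4 (-13.76 ± 0.48, or at least 15453-fold lower without IL-4 replicate 3, which leaves 0 counts with IL-4). Iigp1, a GTPase that attacks the vacuoles of intracellular parasites, had 0, 0.109 and 0.280 CPM with IL-4 and 1747, 1455 and 1625 CPM with IFN-γ, against 2.80, 3.08 and 2.25 CPM untreated (-13.33 ± 0.44, or 27339-fold lower without IL-4 replicate 3, which leaves 2 counts with IL-4). Iigp1 was lower with IL-4 than untreated as well as higher with IFN-γ than untreated.

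Ly6a, the surface antigen Sca-1, had 0.314, 0.490 and 0.315 CPM with IL-4 and 2555, 3136 and 2361 CPM with IFN-γ, against 15.1, 87.3 and 24.7 CPM untreated (-12.87 ± 0.77, adjusted p = 1.64e-08), so the untreated libraries lay between the cytokines. The serpins Serpina3g and Serpina3f, inhibitors of proteases, changed by -12.33 ± 0.44 (Serpina3g) and -12.23 ± 0.32, or 13801-fold lower without IL-4 replicate 3, which leaves 1 count with IL-4 (Serpina3f). The size of other large falls rested on IFN-γ replicate 3. Ubd, a ubiquitin-like modifier, had 7.06, 2.71 and 170.2 CPM with IFN-γ and no counts in the IL-4 or untreated libraries, and was at least 1120.3-fold lower, or at least 95.8-fold without IFN-γ replicate 3 (adjusted p = 0.0261). Its call was lost in 3 of 13 alternative settings, with adjusted p up to 0.0565. Complement factor B, Cfb, had 0, 0.272 and 0.0700 CPM with IL-4 and 93.1, 116 and 1150.4 CPM with IFN-γ, against 2.37, 2.62 and 2.02 CPM untreated (-12.05 ± 1.30, or 9221-fold lower without IL-4 replicate 2, which leaves 2 counts with IL-4 and -9.78 without IFN-γ replicate 3).

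**Figure D2:**
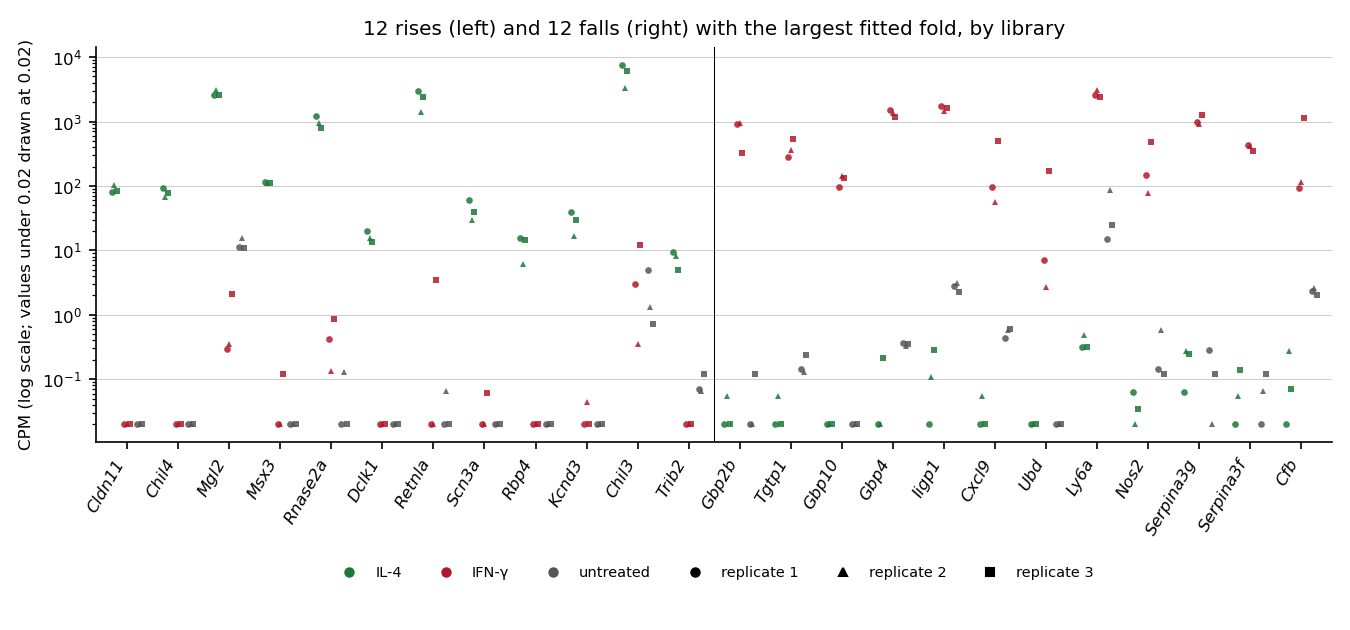
Level in each library, in CPM on a log axis with values under 0.02 drawn at 0.02, of the 12 rises (left) and 12 falls (right) with the largest fitted fold of IL-4 over IFN-γ. Colours mark IL-4, IFN-γ and untreated cultures and shapes the replicates. The genes were chosen to have no overlap between the 3 IL-4 and the 3 IFN-γ points. IFN-γ replicate 3 (square) lies far above its group for Cxcl9, Ubd, Nos2 and Cfb.

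By level per kb of exon, the genes that gained most with IL-4 were Gpnmb, Ctsd, Lgals3, Chil3 and Retnla, beside Gm49369, which shares its exons with Ctsd. Gpnmb, a glycoprotein of endosomes and lysosomes, had 15311, 18272 and 16502 CPM with IL-4 and 4224, 6264 and 6089 CPM with IFN-γ, against 6025, 8022 and 6901 CPM untreated (1.51 ± 0.31, adjusted p = 0.00109). Galectin 3, Lgals3, changed by 1.34 ± 0.27 and the protease cathepsin D, Ctsd, by 1.26 ± 0.22. The genes that lost most were Ly6a, Gbp2, Cd74, B2m, Prdx1 and Ifitm3. Cd74, the invariant chain of MHC class II, averaged 1136 ± 124 CPM with IL-4, 8591 ± 2327 with IFN-γ and 78.1 ± 17.1 untreated, and the antiviral membrane protein Ifitm3 averaged 335 ± 127 CPM with IL-4, 1075 ± 238 with IFN-γ and 1205 ± 262 untreated. The IL-4 libraries were thus the low ones for Ifitm3 (-1.75 ± 0.27), with IFN-γ and untreated libraries overlapping.

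IL-4 receptor chains were lower with IL-4, and IFN-γ receptor chains did not pass with all libraries. Among 15 tested receptor chains, 2 were higher and 7 lower with IL-4, or 6 higher without IFN-γ replicate 3, where 24.3% and 26.3% of all tested genes were. The IL-4 receptor chain Il4ra had 56.5, 55.8 and 72.5 CPM with IL-4 and 278, 308 and 303 CPM with IFN-γ, against 97.4, 89.04 and 128 CPM untreated (-2.34 ± 0.16, adjusted p = 5.26e-08), and Il13ra1, its partner in the second type of receptor, had 2.57, 3.10 and 2.76 CPM with IL-4 and 48.3, 40.1 and 41.3 CPM with IFN-γ, against 13.3, 15.998 and 11.04 CPM untreated (-4.01 ± 0.20). For Il4ra and Il13ra1 the IL-4 libraries were lowest, the untreated ones intermediate and the IFN-γ ones highest, with no overlap between the cytokines. The common gamma chain Il2rg changed by -2.48 ± 0.14 and the IL-10 receptor chain Il10ra by -2.09 ± 0.19. Il6st, the signalling chain shared by the IL-6 family, was higher (1.22 ± 0.16). The IFN-γ receptor chains Ifngr1 (-0.09 ± 0.17, adjusted p = 0.688) and Ifngr2 (-0.03 ± 0.18, adjusted p = 0.889) did not pass, but Ifngr2 was 0.30 (adjusted p = 0.0157) without IFN-γ replicate 3.

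Of the 11 Janus kinases and STATs, 1 was higher and 8 lower with IL-4. Stat2, which works in type I interferon signalling, had 46.9, 56.5 and 56.98 CPM with IL-4 and 357, 432 and 298 CPM with IFN-γ, against 126, 152 and 136 CPM untreated (-2.83 ± 0.13, adjusted p = 2.00e-09), and Stat3 was lower too (-1.71 ± 0.10). Stat6, the factor IL-4 activates by phosphorylation, changed by -0.22 ± 0.11 and did not pass (adjusted p = 0.102). The 1 higher member, Stat5a (0.35 ± 0.12, adjusted p = 0.0275), lost its call in 6 of 14 settings, with adjusted p up to 0.0847. Of 13 feedback inhibitors 4 were higher and 7 lower, beside 24.3% and 26.3% of all tested genes. Cish, a SOCS-family inhibitor known as a STAT5 target, had 57.3, 51.7 and 68.8 CPM with IL-4 and 1.74, 2.93 and 4.09 CPM with IFN-γ, against 0.717, 0.787 and 1.19 CPM untreated (4.25 ± 0.32), and Socs2 (4.19 ± 0.55) and Socs6 (2.06 ± 0.13) were higher too. Socs3 (-3.36 ± 0.38, or -2.70 without IFN-γ replicate 3) and Usp18 (-2.44 ± 0.31), which restrains type I interferon receptors, were lower. Socs1 stood at 35.1, 57.3 and 0.802 CPM with IL-4, IFN-γ and no treatment and did not pass (-0.80 ± 0.32, adjusted p = 0.0533).

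Interferon regulatory factors were lower with IL-4 in 6 of 8 cases, with 1 higher. Irf1, which carries much of the IFN-γ response, had 62.96, 60.6 and 56.8 CPM with IL-4 and 1138, 1415 and 1369 CPM with IFN-γ, against 55.3, 61.8 and 48.8 CPM untreated (-4.53 ± 0.15, adjusted p = 1.03e-10). The IL-4 and untreated libraries overlapped and all IFN-γ libraries were above them. Irf7 and Irf8 changed by -6.89 ± 0.46 and -3.01 ± 0.14. The higher one was Irf4, a factor needed for alternative activation in mice, with 74.1, 53.4 and 55.6 CPM with IL-4 and 1.26, 1.47 and 0.305 CPM with IFN-γ, against 2.80, 2.88 and 3.92 CPM untreated (5.81 ± 0.41, adjusted p = 8.58e-08). Its untreated libraries lay between the cytokines. Among 27 other transcription factors 7 were higher and 9 lower, beside 24.3% and 26.3% of all tested genes. Egr2, a zinc finger factor induced by IL-4, had 159.6, 121 and 164 CPM with IL-4 and 1.56, 2.36 and 4.51 CPM with IFN-γ, against 5.88, 5.77 and 6.29 CPM untreated (5.63 ± 0.60). The repressor Bhlhe40 (3.89 ± 0.31), Klf4 (2.77 ± 0.31) and the lipid sensor Pparg (1.96 ± 0.23) were higher as well. Batf2, a partner of Irf1, had 3.91, 219.5 and 3.62 CPM with IL-4, IFN-γ and no treatment (-5.86 ± 0.24), and the NF-κB cofactor Nfkbiz (-4.18 ± 0.23) and the hypoxia factor Hif1a (-1.72 ± 0.13) were lower. Spi1, the master factor of myeloid cells, differed by -0.09 ± 0.19 (adjusted p = 0.725).

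Genes of alternative activation were called higher in 24 of 31 cases and lower in 3, with a median change of 3.72, against -0.01 for all tested genes. Beyond those above, Fn1, the matrix protein fibronectin, had 713, 133 and 226 CPM with IL-4 and 0.239, 0.178 and 1.04 CPM with IFN-γ, against 0.430, 0.393 and 0.119 CPM untreated (9.50 ± 0.79, or 8.52 without IL-4 replicate 1 and 10.70 without IFN-γ replicate 3). The adhesion protein Cdh1, E-cadherin, had 46.4, 42.6 and 33.9 CPM with IL-4 and 0.359, 0.133 and 0.122 CPM with IFN-γ, against 0.143, 0.262 and 0.119 CPM untreated (7.56 ± 0.29, adjusted p = 3.11e-10). The 3 IL-4 libraries stood far above all others for Fn1 and Cdh1, and the IFN-γ and untreated libraries overlapped. The lectin Clec10a (4.26 ± 0.35), the ribonuclease Ear2 (5.71 ± 0.52, or 6.36 without IFN-γ replicate 3) and the checkpoint ligand Pdcd1lg2 (4.09 ± 0.44, or 4.79 without IFN-γ replicate 2) rose too. The 3 members that were lower were the crosslinking enzyme Tgm2, the fusion gene Ocstamp and the IL-1 receptor antagonist Il1rn. Tgm2 averaged 115 ± 11.97 CPM with IL-4, 2127 ± 255 with IFN-γ and 61.1 ± 1.53 untreated (-4.28 ± 0.30). Ocstamp had 58.9, 20.4 and 27.1 CPM with IL-4 and 204, 235 and 20.3 CPM with IFN-γ, against 0, 0.0656 and 0.119 CPM untreated (-2.14 ± 0.62, adjusted p = 0.0105). IFN-γ replicate 3 lay below IL-4 replicate 3 for this gene, and the call was lost when only the 6 libraries were fitted, with or without the replicate block (adjusted p up to 0.139). Il1rn changed by -1.10 ± 0.34 (adjusted p = 0.0149), and adjusted p was 0.0542 without IL-4 replicate 3.

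Arginine is the shared substrate of Arg1 and Nos2, and 8 of 16 genes around it were higher with IL-4 and 5 lower (3 lower without IFN-γ replicate 3). Slc7a2, a cationic amino acid transporter, had 307, 139.9 and 138 CPM with IL-4 and 17.7, 11.5 and 13.05 CPM with IFN-γ, against 1.79, 1.11 and 0.949 CPM untreated (3.72 ± 0.30), with both cytokines above untreated. The spermidine synthase Srm changed by 2.10 ± 0.24. Ass1, which rebuilds arginine from citrulline, was lower (-2.70 ± 0.49, or -2.06 without IFN-γ replicate 3). Acod1, the enzyme that makes itaconate, had 2.13, 3.43 and 3.22 CPM with IL-4 and 1810.0, 1032 and 895 CPM with IFN-γ, against 149, 127 and 108 CPM untreated (-8.77 ± 0.56, adjusted p = 2.96e-08), with the untreated libraries between the cytokines.

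Genes of classical activation were lower in 25 of 26 tested cases of 30 listed, with a median of -6.77. Among inflammatory cytokines that were not tested, Il6 held 57 counts with IL-4, 8 with IFN-γ and 0 untreated. Il12b held 0, 4 and 0 and Il23a 0, 2 and 0. The exception among the tested genes was the costimulatory ligand Cd80, which was higher with IL-4 (0.82 ± 0.09). It had 32.05, 30.6 and 34.1 CPM with IL-4 and 16.6, 18.9 and 16.4 CPM with IFN-γ, against 17.9, 16.8 and 17.2 CPM untreated. Its relative Cd86 moved the other way (-4.76 ± 0.23), at 5.46, 4.73 and 6.93 CPM with IL-4 and 152, 158 and 135 CPM with IFN-γ, against 13.4, 7.47 and 12.1 CPM untreated. Tnf, the inflammatory cytokine, had 9.22, 9.30 and 9.93 CPM with IL-4 and 194, 211 and 151 CPM with IFN-γ, against 145, 125 and 133 CPM untreated (-4.35 ± 0.14, adjusted p = 1.03e-10), so that the IL-4 libraries stood apart and the untreated ones lay nearer IFN-γ. The high-affinity IgG receptor Fcgr1 (-6.45 ± 0.31), the prostaglandin synthase Ptgs2 (-9.44 ± 0.69) and the chemoattractant receptor Fpr2 (-10.78 ± 0.99, or -9.55 without IFN-γ replicate 3) were lower.

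Every tested member of 4 lists of interferon-inducible genes was lower with IL-4, where 26.3% of all tested genes were. They were 11 of 11 guanylate-binding proteins, 8 of 8 immunity-related GTPases, 32 of 32 antiviral genes and 11 of 11 Ifi200-family DNA sensors. Their median changes were -10.02 for the guanylate-binding proteins, -5.84 for the immunity-related GTPases, -4.59 for the antiviral genes and -4.68 for the Ifi200 family. The lists, of which the antiviral one is compiled and not a gene family, were chosen with earlier results of these data known. Their counts are thus a description and not a test. Gbp2 had 11.98, 7.23 and 10.4 CPM with IL-4 and 3192, 2986 and 4624 CPM with IFN-γ, against 19.4, 23.01 and 20.1 CPM untreated (-8.61 ± 0.32, adjusted p = 2.29e-10). Irgm1, a regulator of the GTPases, had 36.9, 38.7 and 40.9 CPM with IL-4 and 1211, 1196 and 1283 CPM with IFN-γ, against 100.1, 139.7 and 107 CPM untreated (-5.06 ± 0.21). For Gbp2 and Irgm1 the IL-4 libraries were the lowest of the 3 groups and the IFN-γ libraries the highest, with no overlap. The antiviral genes Ifit2 (-7.57 ± 0.36), Rsad2 (-7.07 ± 0.32) and Isg15 (-5.13 ± 0.25) belong as much to the type I interferon response. For Isg15 the untreated libraries, at 30.995, 49.8 and 29.4 CPM, lay between 3.64, 6.58 and 4.83 CPM with IL-4 and 146, 201 and 155 CPM with IFN-γ. The growth regulators of the Schlafen family were lower in 6 of 7 cases, with Slfn1 (-8.31 ± 0.48) the largest.

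Many of these genes are neighbours in the genome. Runs of 4 or more neighbouring tested genes, all called the same way and at least 2-fold, numbered 35, of which 30 were lower and 5 higher with IL-4. The longest lower runs had 12 genes each: the Ifi200 genes from Aim2 to Ifi205 on chromosome 1 (173350879 to 174031810) and the class II region from H2-DMa to Notch4 on chromosome 17 (34119541 to 34588503). A run of 10 on chromosome 11 (48861968 to 49135387) held Irgm1, Tgtp1, Tgtp2 and Ifi47, and 9 Trim genes from Trim6 to Trim30d stood together on chromosome 7 (104218793 to 104507849). Guanylate-binding proteins formed a run of 7 on chromosome 5 (105014150 to 105346472, 1 of them a predicted gene) and one of 5 on chromosome 3 (142493978 to 142638008). Among higher runs, Il6st stood beside the receptor gene Il31ra on chromosome 13 (112288451 to 112652475), and Tmem37, Dbi and Steap3 on chromosome 1 (120067377 to 120272705). A higher run of 17 on chromosome 18 held protocadherin genes whose annotated exons overlap, so that its genes are not separate observations.

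Promoter sequences are shown for genes of both programmes because STAT factors and interferon regulatory factors are known to bind short palindromes and repeats. In RefSeq promoters (GRCm38.p6, 250 bases before to 50 after a start; 831 of the 1110 higher genes, 1123 of the 1463 lower ones and 9276 of the 11883 tested genes matched by symbol), 3 motifs were searched on both strands. GAAA and GAAA with any 2 bases between them, the core of an interferon-stimulated response element, were found in 2.43% of promoters of genes at least 2-fold higher with IL-4 and 8.59% of those at least 2-fold lower, against 3.39% of 11855 promoters of all tested genes. TTC and GAA with 3 bases between them, the spacing of a gamma-activated site, were found in 5.77%, 8.93% and 6.88%. With 4 bases between them, the spacing STAT6 prefers, they were found in 6.49%, 5.34% and 5.50%. In 13 promoters of tested genes a match to the GAAA repeat overlapped one of TTC and GAA with 3 bases between, and in 9 it overlapped one with 4 bases between. A match is a description of letters, not evidence of binding.

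The 250 bases before the start of 5 genes that were lower with IL-4 follow, 5′ to 3′ on the gene's strand, with the motif match in capitals; they were picked because they hold a match. Irf1 (chr11:53769764-53770013, plus strand) and Serpina3g (chr12:104235897-104236146, plus strand) hold TTC and GAA with 3 bases between, and the matches begin 90 and 33 bases before the start. Gbp2b (chr3:142594597-142594846, plus strand), Gbp2 (chr3:142620413-142620662, plus strand) and Cxcl10 (chr5:92348890-92349139, minus strand) hold the GAAA repeat, read on the opposite strand in Gbp2b and Gbp2, and in all 3 the match is the same 10 letters, GAAAGTGAAA.
Irf1: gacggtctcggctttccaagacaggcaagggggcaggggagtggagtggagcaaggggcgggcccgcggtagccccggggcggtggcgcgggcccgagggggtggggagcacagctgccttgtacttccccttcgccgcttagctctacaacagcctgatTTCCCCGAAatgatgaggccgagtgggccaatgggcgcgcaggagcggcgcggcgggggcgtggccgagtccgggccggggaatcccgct
Serpina3g: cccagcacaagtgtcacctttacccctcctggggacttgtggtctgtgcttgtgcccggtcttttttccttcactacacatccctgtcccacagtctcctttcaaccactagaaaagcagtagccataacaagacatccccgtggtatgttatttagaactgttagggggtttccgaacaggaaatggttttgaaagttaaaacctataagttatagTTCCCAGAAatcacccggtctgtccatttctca
Gbp2b: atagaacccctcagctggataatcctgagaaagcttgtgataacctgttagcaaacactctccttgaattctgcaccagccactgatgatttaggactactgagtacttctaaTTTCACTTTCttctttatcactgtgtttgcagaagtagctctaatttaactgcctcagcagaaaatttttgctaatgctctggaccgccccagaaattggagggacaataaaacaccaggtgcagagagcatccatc
Gbp2: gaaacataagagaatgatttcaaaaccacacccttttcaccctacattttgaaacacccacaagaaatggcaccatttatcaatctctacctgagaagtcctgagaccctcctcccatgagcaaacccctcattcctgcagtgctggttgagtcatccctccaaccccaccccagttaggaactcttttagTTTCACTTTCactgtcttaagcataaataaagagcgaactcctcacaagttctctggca
Cxcl10: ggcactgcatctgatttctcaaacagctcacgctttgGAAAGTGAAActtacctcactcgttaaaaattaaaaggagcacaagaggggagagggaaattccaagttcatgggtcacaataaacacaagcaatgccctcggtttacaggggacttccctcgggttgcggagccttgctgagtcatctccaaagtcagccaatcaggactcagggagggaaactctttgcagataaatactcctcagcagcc

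Of genes higher with IL-4, Retnla (chr16:48842359-48842608, plus strand) holds TTC and GAA with 4 bases between, beginning 145 bases before the start, and Chil3 (chr3:106167565-106167814, minus strand) holds TTC and GAA with 3 bases between, beginning 172 bases before it.
Retnla: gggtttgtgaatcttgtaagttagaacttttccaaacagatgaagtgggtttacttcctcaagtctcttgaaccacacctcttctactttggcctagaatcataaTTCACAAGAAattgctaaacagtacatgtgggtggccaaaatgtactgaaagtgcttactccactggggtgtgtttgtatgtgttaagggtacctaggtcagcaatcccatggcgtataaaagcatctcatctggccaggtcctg
Chil3: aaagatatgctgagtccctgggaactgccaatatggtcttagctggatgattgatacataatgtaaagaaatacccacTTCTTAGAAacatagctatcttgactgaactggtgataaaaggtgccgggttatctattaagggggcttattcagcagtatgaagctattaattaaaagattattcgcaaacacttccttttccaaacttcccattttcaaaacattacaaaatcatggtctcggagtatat

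Most genes of MHC class II presentation were lower with IL-4 than with IFN-γ, and several of them were higher with IL-4 than untreated. Of 14 tested class II genes, 11 were lower with IL-4 and 1 higher, with a median of -2.80. Ciita, the master activator of class II transcription, had 22.8, 17.6 and 15.1 CPM with IL-4 and 220.5, 237 and 203 CPM with IFN-γ, against 0.646, 0.983 and 0.949 CPM untreated (-3.65 ± 0.25, adjusted p = 4.88e-08). The class II chain H2-Ab1 had 161, 105 and 112 CPM with IL-4 and 990.1, 1116 and 2334 CPM with IFN-γ, against 12.9, 10.1 and 6.53 CPM untreated (-3.67 ± 0.39, or -3.08 without IFN-γ replicate 3). For both genes the IL-4 libraries lay below every IFN-γ library and above every untreated one, and against untreated cultures Ciita changed by 4.53 ± 0.33 with IL-4 (adjusted p = 6.78e-07) and 8.19 ± 0.34 with IFN-γ (adjusted p = 1.41e-09). H2-Oa, a chain of the inhibitor H2-O, did not share this order: it held 1 count with IL-4 and 6.82, 5.56 and 21.9 CPM with IFN-γ, and its untreated libraries had 0.215, 0.262 and 0.356 CPM. Rfxap, the 1 higher gene, lost its call in 6 of 14 settings, with adjusted p up to 0.145.

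All 14 class I heavy chains and partners were lower with IL-4, with a median of -3.03. Nlrc5, the activator of class I transcription, had 15.9, 15.5 and 16.6 CPM with IL-4 and 288, 273 and 255 CPM with IFN-γ, against 38.1, 45.1 and 37.02 CPM untreated (-4.16 ± 0.14, adjusted p = 1.03e-10). The light chain B2m changed by -2.06 ± 0.22 and the heavy chain H2-K1 by -2.24 ± 0.20. Of 12 genes of the immunoproteasome and peptide loading, 10 were lower and 1, the chaperone Calr, was higher (0.96 ± 0.24). The peptide transporter Tap1 (-4.13 ± 0.19) and the proteasome subunit Psmb8 (-2.61 ± 0.13) were examples. For Nlrc5, Tap1 and Psmb8 the IL-4 libraries were below the untreated ones, unlike class II. Among 18 costimulatory and checkpoint ligands 12 were lower and 3 higher. Cd274, the ligand PD-L1, had 75.4, 64.2 and 83.95 CPM with IL-4 and 936, 1032 and 1989 CPM with IFN-γ, against 25.6, 19.4 and 22.4 CPM untreated (-4.25 ± 0.48), whereas Pdcd1lg2, the ligand PD-L2, had 18.2, 14.2 and 14.4 CPM with IL-4 and 0.359, 1.47 and 0.671 CPM with IFN-γ, against 0.143, 0.197 and 0 CPM untreated in the opposite direction.

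**Figure D3:**
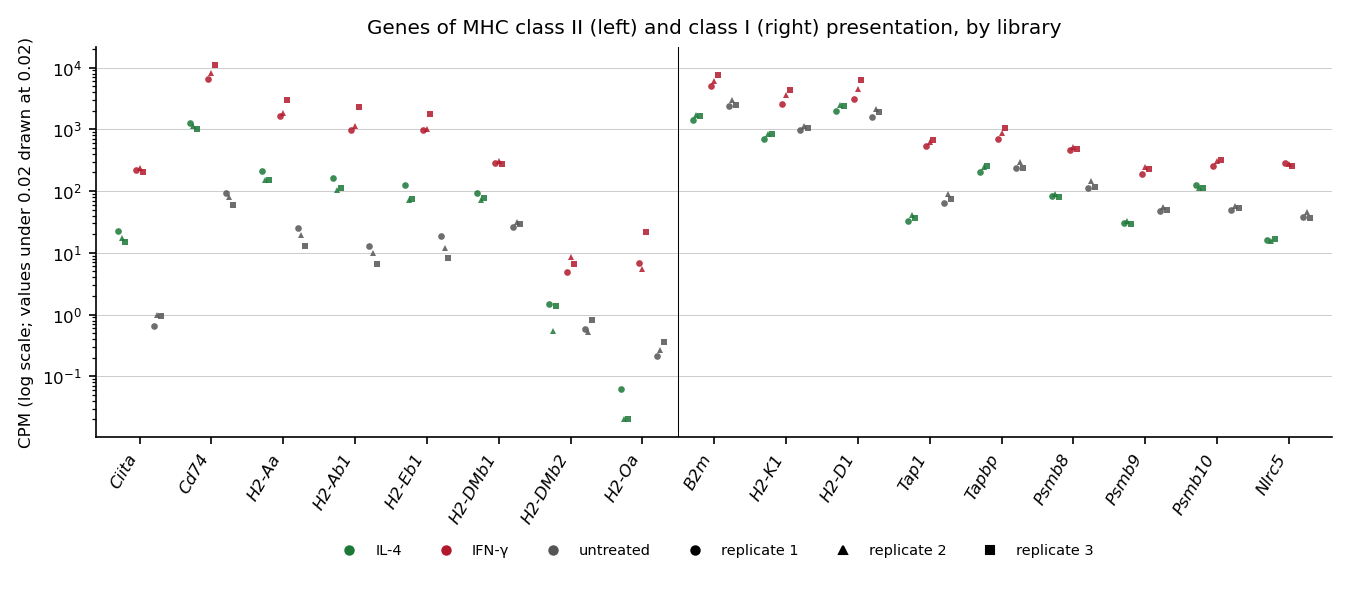
Level in each library, in CPM on a log axis with values under 0.02 drawn at 0.02, of genes of class II (left of the line) and class I presentation (right). For Ciita, Cd74, H2-Aa, H2-Ab1, H2-Eb1 and H2-DMb1 the IL-4 points lie between the IFN-γ and the untreated points, and for Tap1, Psmb8, Psmb9 and Nlrc5 they lie below both.

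Chemokines divided by family. Among CXC and CX3C chemokines 7 of 10 were lower with IL-4 and 1, Cxcl12, was higher. Of 12 CC chemokines 5 were higher and 3 lower, beside 24.3% and 26.3% of all tested genes. Cxcl10 (-9.44 ± 0.51, or -10.13 without IL-4 replicate 2) and Cxcl16 (-5.28 ± 0.54, or -4.19 without IFN-γ replicate 3) attract activated T cells. Ccl5, which does so too, had 0.188, 0.598 and 0.315 CPM with IL-4 and 23.9, 28.1 and 1286 CPM with IFN-γ, against 1.29, 2.56 and 0.712 CPM untreated (-10.41 ± 1.70, or -6.13 without IFN-γ replicate 3, adjusted p = 1.95e-04), with IFN-γ replicate 3 the highest by far. Ccl24, an eosinophil attractant, had 28.3, 5.22 and 10.04 CPM with IL-4 and 0.0599, 0.0445 and 0.0610 CPM with IFN-γ, against 0.215, 0.262 and 0.119 CPM untreated and was 246-fold higher, 95% counting interval 83.9 to 1195, or 151-fold without IL-4 replicate 1. Ccl9 (2.73 ± 0.36) was the most abundant of the higher CC genes beside Ccl6, at 2102, 308 and 1679 CPM with IL-4, IFN-γ and no treatment. The monocyte attractants Ccl2 (1.26 ± 0.68, adjusted p = 0.140) and Ccl7 (0.97 ± 0.89, adjusted p = 0.381) did not pass. Ccl7 had 666, 759 and 872 CPM with IL-4 and 559.6, 580.0 and 17.3 CPM with IFN-γ, so IFN-γ replicates 1 and 2 were near the IL-4 libraries and replicate 3 was far below. The chemokine receptor Ccrl2 (-3.88 ± 0.50, or -2.91 without IFN-γ replicate 3) was among 5 of 8 that were lower, and Cxcr4 (1.65 ± 0.45) was the 1 that was higher.

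Of 19 cytokines and growth factors, 12 were lower with IL-4 and 4 higher. Il18bp, a decoy that neutralizes IL-18, had 5.33, 4.62 and 6.44 CPM with IL-4 and 336, 527 and 708 CPM with IFN-γ, against 7.53, 6.69 and 9.49 CPM untreated (-6.67 ± 0.34), and its ligand Il18 was lower too (-2.87 ± 0.15). All IFN-γ libraries of Il18bp lay far above the IL-4 and untreated ones. The anti-inflammatory cytokine Il10 was lower with IL-4 (-3.40 ± 0.54), at 0.851, 8.95 and 4.03 CPM with IL-4, IFN-γ and no treatment. The angiogenic factor Vegfa changed by -3.56 ± 0.56. The higher genes were growth factors: Igf1 had 1329, 1375 and 1529 CPM with IL-4 and 216, 152 and 419 CPM with IFN-γ, against 696, 719.8 and 710.4 CPM untreated (2.31 ± 0.30, or 2.93 without IFN-γ replicate 3), Hbegf changed by 4.70 ± 0.35, Pdgfa by 2.28 ± 0.24 and Tgfb1 by 0.79 ± 0.13.

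Pathogen sensors and inflammasome genes were mostly lower with IL-4. Toll-like receptors and related sensors were lower in 12 of 19 cases and inflammasome genes in 13 of 15. Tlr9, a sensor of microbial DNA in endosomes, had 1.57, 1.09 and 1.78 CPM with IL-4 and 91.04, 105 and 90.7 CPM with IFN-γ, against 5.96, 9.83 and 6.76 CPM untreated (-6.06 ± 0.30, adjusted p = 2.73e-09). Its untreated libraries lay between the cytokines, nearer IL-4. Tlr2 was lower with IL-4 (-3.87 ± 0.39), but its untreated libraries, at 221, 152 and 204 CPM, were not below the IFN-γ ones, at 124, 69.8 and 181 CPM. Tlr4, the receptor of lipopolysaccharide, differed by -0.20 ± 0.14 (adjusted p = 0.265) and the RNA sensor Tlr7 by -0.01 ± 0.16 (adjusted p = 0.964), and neither passed. The proteases Casp1 (-2.12 ± 0.10) and Casp4 (-3.05 ± 0.19), which trigger pyroptosis, and the sensor Nlrp3 (-2.60 ± 0.13) were lower. The adaptor Pycard did not pass (0.12 ± 0.16, adjusted p = 0.538).

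Complement genes were lower in 8 of 19 cases, beside 26.3% of all tested genes. C3, the central component, had 11.98, 14.2 and 24.8 CPM with IL-4 and 475, 302 and 2824 CPM with IFN-γ, against 114, 127 and 111 CPM untreated (-6.29 ± 0.84, or -4.50 without IFN-γ replicate 3, adjusted p = 3.65e-05), with the IL-4 libraries lowest and the untreated ones next. C4b changed by -5.85 ± 0.29. The C1q chains C1qa, C1qb and C1qc did not pass (-1.33 ± 0.61 for C1qb, adjusted p = 0.0850). Of 9 genes of the phagocyte oxidase and superoxide handling 4 were lower, with 1 higher without IFN-γ replicate 3. Cybb, its membrane subunit, had 386, 333 and 378 CPM with IL-4 and 2162, 1474 and 4481 CPM with IFN-γ, against 950.2, 909 and 888 CPM untreated (-3.01 ± 0.39, or -2.32 without IFN-γ replicate 3), while its partner Cyba changed by 0.05 ± 0.19 and did not pass (adjusted p = 0.846).

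Uptake receptors changed in both directions. Scavenger receptors and lectins were higher with IL-4 in 12 of 23 cases and lower in 7, beside 24.3% and 26.3% of all tested genes. The haemoglobin scavenger receptor Cd163 was higher (3.17 ± 0.51), at 5.11, 0.538 and 6.75 CPM with IL-4, IFN-γ and no treatment, and Clec4b1 and Colec12 changed by 3.55 ± 0.50 and 2.02 ± 0.25. The scavenger receptor Msr1 (-1.86 ± 0.19) and the lectins Clec12a (-3.77 ± 0.21) and Clec4e (-4.08 ± 0.51, or -3.08 without IFN-γ replicate 3) were lower, and Clec4e encodes a sensor of mycobacterial lipid. Marco had 1.51, 0.490 and 1.22 CPM with IL-4 and 50.4, 1.73 and 352 CPM with IFN-γ, against 381, 83.9 and 186 CPM untreated (-7.13 ± 1.59, or -4.57 without IFN-γ replicate 3), so that the untreated and IFN-γ libraries overlapped, the IFN-γ libraries spread widely and the IL-4 libraries were lowest. Among Fc receptors, the inhibitory receptor Fcgr2b was higher, with 621, 709 and 723 CPM with IL-4 and 59.3, 47.6 and 29.6 CPM with IFN-γ, against 186, 153 and 215 CPM untreated (3.86 ± 0.26, adjusted p = 5.41e-08), and Fcrls rose as well (5.48 ± 0.76, or 6.63 without IFN-γ replicate 2). The untreated libraries of Fcgr2b lay between the cytokines. The activating receptor Fcgr4 was lower (-4.44 ± 0.24) and 5 of 8 Fc receptors were lower in all. Fcgr3 did not pass (-0.11 ± 0.12, adjusted p = 0.498).

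Genes for the uptake of apoptotic cells were higher in 8 of 18 cases and lower in 5, beside 24.3% and 26.3% of all tested genes. The bridging protein Mfge8, which links dying cells to integrins, had 209, 195 and 202 CPM with IL-4 and 5.69, 7.20 and 10.3 CPM with IFN-γ, against 48.6, 63.1 and 48.2 CPM untreated (4.62 ± 0.32), and the integrin chain Itgb3 had 143, 126 and 136 CPM with IL-4 and 0.359, 0.267 and 0.488 CPM with IFN-γ, against 6.89, 8.92 and 11.7 CPM untreated (8.44 ± 0.37, adjusted p = 1.18e-09). For Mfge8 and Itgb3 the IL-4 libraries were highest, the untreated ones intermediate and the IFN-γ ones lowest. The receptor kinases Axl (-3.53 ± 0.21) and Mertk (-2.69 ± 0.47, or -2.00 without IFN-γ replicate 3) were lower, while their ligand Gas6 was higher (2.64 ± 0.42), at 603, 93.4 and 1110.2 CPM with IL-4, IFN-γ and no treatment. Purinergic genes were higher in 4 of 13 cases and lower in 7, with the ADP receptor P2ry1 (4.68 ± 0.33) higher and the NAD-consuming enzyme Cd38 (-5.80 ± 0.55, or -4.96 without IFN-γ replicate 3) lower. Of 9 Ms4a genes 5 were lower, with Ms4a4c (-6.59 ± 0.39) and Ms4a6b (-3.94 ± 0.33) first, and 2 were higher. Of all tested genes, 26.3% were lower and 24.3% higher.

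Adhesion genes held single members that changed far more than the rest, with 5 of 20 higher and 8 lower. Of all tested genes, 24.3% were higher and 26.3% lower. Itgax, the integrin chain CD11c, had 790.4, 439.9 and 660.5 CPM with IL-4 and 4.73, 6.85 and 6.65 CPM with IFN-γ, against 10.5, 17.05 and 11.9 CPM untreated (6.61 ± 0.77, adjusted p = 9.93e-06). Itgal, the chain of LFA-1, had 3.26, 1.41 and 2.87 CPM with IL-4 and 650.3, 426 and 385 CPM with IFN-γ, against 35.7, 27.3 and 33.2 CPM untreated (-7.65 ± 0.33, adjusted p = 1.01e-09). The IFN-γ libraries of Itgax lay just below the untreated ones, while the untreated libraries of Itgal lay between the cytokines. Itgam, the chain CD11b, differed by 0.17 ± 0.13 and did not pass (adjusted p = 0.285). Matrix proteins and proteases were higher in 8 of 18 cases and lower in 4, beside 24.3% and 26.3% of all tested genes. Mmp12, the macrophage elastase, had 7020.5, 3522 and 5101 CPM with IL-4 and 115, 79.4 and 139.7 CPM with IFN-γ, against 336, 383 and 322 CPM untreated (5.45 ± 1.03), and the protease inhibitor Timp2 (4.04 ± 0.21) and the urokinase receptor Plaur (1.46 ± 0.14) rose. In Mmp12 every IL-4 library exceeded every untreated one, and the IFN-γ libraries were lowest. Mmp14, a membrane-bound matrix protease, had 0.627, 0.435 and 0.735 CPM with IL-4 and 12.9, 3.42 and 252 CPM with IFN-γ, against 29.1, 8.46 and 13.4 CPM untreated (-7.35 ± 1.48, or -3.70 without IFN-γ replicate 3).

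Macrophages given IL-4 are known to fuse into giant cells, and 9 of 14 fusion and osteoclast genes were higher, with 4 lower (2 without IL-4 replicate 1). Atp6v0d2, a proton pump subunit needed for fusion in mice, had 1186, 844 and 1068 CPM with IL-4 and 3.95, 8.27 and 10.1 CPM with IFN-γ, against 21.8, 29.6 and 23.6 CPM untreated (7.02 ± 0.72, adjusted p = 3.06e-06). All IL-4 libraries of Atp6v0d2 lay above the untreated ones and all IFN-γ libraries below them. Dcstamp, a membrane protein of fusing cells, changed by 4.63 ± 0.53, the tetraspanin Cd9 by 2.74 ± 0.22 and the protease Ctsk by 4.26 ± 0.82, or 5.41 without IFN-γ replicate 3. The self-recognition ligand Cd47 was lower (-1.13 ± 0.10). Of 10 serpins and Slpi 3 were higher and 5 lower, beside 24.3% and 26.3% of all tested genes. Serpinb1a was the largest rise (3.62 ± 0.33).

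Prostaglandin and leukotriene genes were higher in 5 of 16 cases and lower in 7, beside 24.3% and 26.3% of all tested genes. The cyclooxygenases moved apart: the constitutive Ptgs1 was higher (2.23 ± 0.19), at 155, 31.8 and 36.9 CPM with IL-4, IFN-γ and no treatment, whereas the inducible Ptgs2 had 0.376, 0.218 and 0.525 CPM with IL-4 and 380.4, 222 and 199.5 CPM with IFN-γ, against 1.43, 0.918 and 0.831 CPM untreated. For Ptgs2 the IL-4 and untreated libraries were near the floor and all IFN-γ libraries far above it. The phospholipases Pla2g4a (-2.06 ± 0.13) and Pla2g7 (-3.03 ± 0.59, or -1.78 without IFN-γ replicate 3) were lower and the leukotriene enzyme Lta4h (0.81 ± 0.09) was higher.

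All 23 cholesterol synthesis genes were higher with IL-4 than with IFN-γ, with a median of 1.84, where 24.3% of all tested genes were higher. Their summed level was 2687, 3037 and 3002 CPM with IL-4 and 1098, 703 and 444 CPM with IFN-γ, against 4073, 3346 and 3700.1 CPM untreated. The untreated libraries thus lay above both cytokines, and the IFN-γ libraries were the low ones. Sqle, the epoxidase of the pathway (ENSMUSG00000022351, chromosome 15, 59315077 to 59331192), had 158, 178 and 186 CPM with IL-4 and 28.9, 14.9 and 6.16 CPM with IFN-γ, against 212, 176 and 195 CPM untreated (3.35 ± 0.40, or 3.94 without IFN-γ replicate 1, adjusted p = 1.20e-05). The IL-4 and untreated libraries of Sqle overlapped, and every IFN-γ library was below them. Hmgcs1, which acts early in the pathway, changed by 2.43 ± 0.26 and the isomerase Idi1 by 2.66 ± 0.46, or 3.39 without IFN-γ replicate 1. Leaving out IFN-γ replicate 3 kept all 23 calls, with a median of 1.65, and leaving out IFN-γ replicate 1 gave a median of 2.29.

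Fatty acid synthesis and LXR target genes were higher in 8 of 15 cases and lower in 3 (5 lower without IFN-γ replicate 1). The desaturase Scd1 had 146, 256 and 177 CPM with IL-4 and 10.9, 6.53 and 0.244 CPM with IFN-γ, against 231, 276 and 160.0 CPM untreated (4.99 ± 0.64, or 5.68 without IFN-γ replicate 1). The IL-4 and untreated libraries overlapped, and IFN-γ replicate 3 was lowest by far. The synthase Fasn changed by 2.21 ± 0.51, or 2.98 without IFN-γ replicate 1. Abca1, which exports cholesterol, was lower (-1.90 ± 0.28). Of 18 genes of fatty acid uptake, storage and oxidation 8 were higher and 3 lower, and most changes were small: the trifunctional enzyme subunit Hadha rose by 0.76 ± 0.08 and the thiolase Acaa2 by 0.91 ± 0.12. Cpt1a, the gate of mitochondrial fatty acid oxidation, differed by -0.02 ± 0.14 and did not pass (adjusted p = 0.902), nor did the fatty acid receptor Cd36 (0.33 ± 0.27, adjusted p = 0.331).

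Glycolysis genes were lower with IL-4 in 14 of 17 cases, with a median of -1.10. Pfkfb3, which makes the activator of phosphofructokinase, had 33.9, 30.9 and 34.1 CPM with IL-4 and 253, 257 and 331 CPM with IFN-γ, against 36.5, 32.7 and 43.9 CPM untreated (-3.18 ± 0.20, adjusted p = 2.96e-08). The IL-4 and untreated libraries of Pfkfb3 overlapped and all IFN-γ libraries were above them. The hexokinases Hk1 (-1.21 ± 0.15), Hk2 (-1.28 ± 0.14) and Hk3 (-1.67 ± 0.12) and the glucose transporter Slc2a1 (-1.17 ± 0.14) were lower. The lactate dehydrogenase Ldha (-0.21 ± 0.23, adjusted p = 0.480) and the enolase Eno1 (-0.16 ± 0.19, adjusted p = 0.507) did not pass. Most mitochondrial genes moved little. In the TCA cycle 4 of 16 genes were higher and 3 lower, with a median of 0.16. Of 75 nuclear subunits of oxidative phosphorylation 19 were higher and 5 lower, with a median of 0.15 and a largest fall of -3.77. The shares of higher genes in both lists were near the 24.3% of all tested genes. The shares of lower genes in both were below the 26.3% of all tested genes. The TCA count was 2 higher and 1 lower without IFN-γ replicate 3, and 2 higher without IL-4 replicate 1 or 3.

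**Figure D4:**
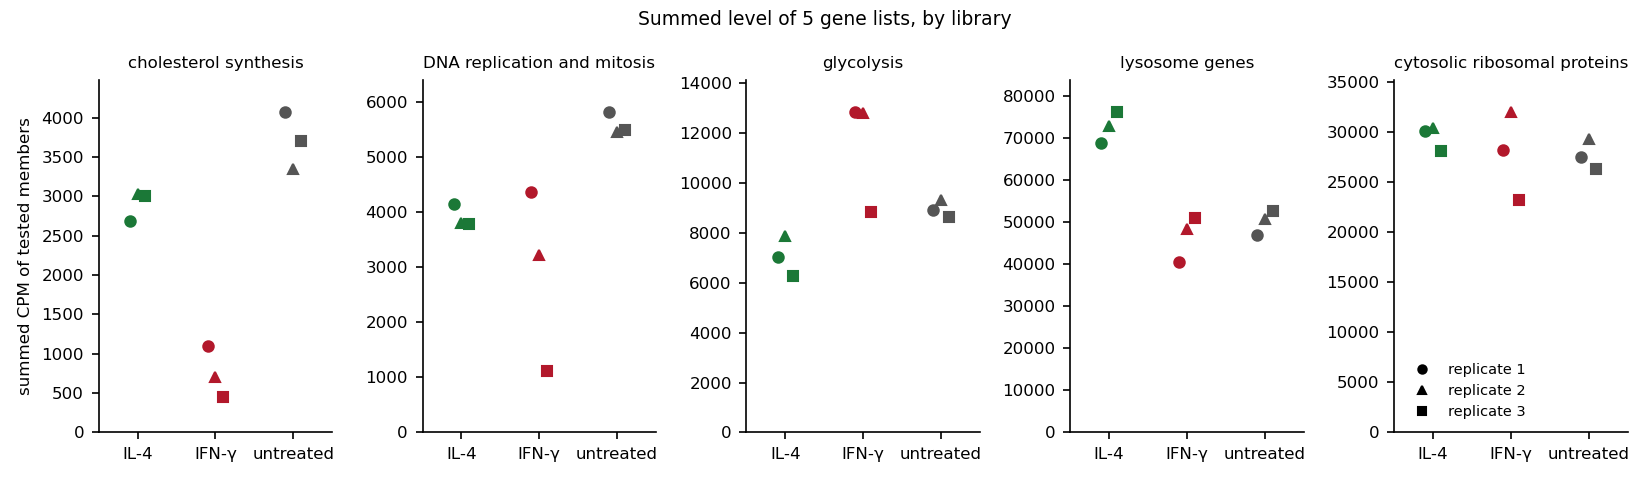
Summed level of the tested members of 5 gene lists in each library, in CPM, for IL-4, IFN-γ and untreated cultures, with shapes for the replicates. Cholesterol synthesis was 2687 to 3037 CPM with IL-4 and 444 to 1098 CPM with IFN-γ, and IFN-γ replicate 3 stood lowest of its group for DNA replication, at 1122 CPM, and for glycolysis, at 8831 CPM.

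Lysosome genes were higher with IL-4 in 15 of 28 cases and lower in 3, with a median of 0.47. Beside Gpnmb and Ctsd, the protease Ctsl had 3644, 2840.0 and 4362 CPM with IL-4 and 1199, 1204 and 942 CPM with IFN-γ, against 1837, 1731 and 1727 CPM untreated (1.63 ± 0.15, adjusted p = 8.67e-07), and the proton pump subunit Atp6v0d1 changed by 0.83 ± 0.07. The proteases Ctsc (-4.33 ± 0.22) and Ctsh (-3.74 ± 0.21) moved the other way, Ctsc with 192, 187 and 184 CPM with IL-4 and 4091, 3557 and 3168 CPM with IFN-γ, against 519.6, 429.9 and 485 CPM untreated. Of 17 heme and iron genes 5 were higher and 4 lower, near the 24.3% and 26.3% of all tested genes, with a median of -0.15, or 0.14 without IFN-γ replicate 3. Tfrc, the transferrin receptor that brings iron in (ENSMUSG00000022797, chromosome 16, 32608920 to 32632794), had 4315, 2738 and 4112 CPM with IL-4 and 104, 59.3 and 61.3 CPM with IFN-γ, against 288, 174 and 267 CPM untreated (5.57 ± 0.29, adjusted p = 4.94e-09). Its IL-4 libraries were far above the untreated ones and its IFN-γ libraries below them. Slc40a1, the iron exporter ferroportin, was lower (-2.30 ± 0.40), and Slc11a1, which pumps metals out of the phagosome, was lower too (-1.63 ± 0.19). The heme oxygenase Hmox1 did not pass (-0.48 ± 0.25, adjusted p = 0.128). Of 15 NRF2 targets and antioxidant genes 7 were lower and 2 higher, with a median of -0.48, or 0.01 without IFN-γ replicate 3. The peroxidase Prdx1 had 1682, 1358 and 1583 CPM with IL-4 and 5125, 3346 and 8835 CPM with IFN-γ, against 1988, 1925 and 2007 CPM untreated (-2.02 ± 0.40). Its IL-4 libraries lay just below the untreated ones and its IFN-γ libraries above both, highest in replicate 3.

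Genes of the integrated stress and unfolded protein response were higher in 8 of 16 cases and lower in 3, with the disulfide isomerase Pdia4 (2.08 ± 0.28) and Sdf2l1 (1.67 ± 0.26) higher and the stress factor Ddit3 (-1.11 ± 0.24) lower. Apoptosis regulators, among them the death receptor Fas (-1.61 ± 0.19), were lower in 14 of 21 cases, beside 26.3% of all tested genes. Immediate early genes were higher in 3 of 11 cases and lower in 4 (median -0.32, or 0.21 without IFN-γ replicate 3), beside 24.3% and 26.3% of all tested genes. Ier3 (2.01 ± 0.12) and Jun (1.30 ± 0.16) were higher and Dusp1 (-2.18 ± 0.40, or -1.53 without IFN-γ replicate 3) lower. Of 14 core macrophage genes 2 were higher (1 without IL-4 replicate 3) and 5 lower, beside 24.3% and 26.3% of all tested genes. Aif1, the calcium-binding protein Iba1 used as a macrophage marker, had 2.51, 2.77 and 4.37 CPM with IL-4 and 298, 281 and 327 CPM with IFN-γ, against 48.4, 49.5 and 47.9 CPM untreated (-6.60 ± 0.53, adjusted p = 2.68e-07), with the untreated libraries between the cytokines. The lysozyme gene Lyz2 did not pass (0.11 ± 0.31, adjusted p = 0.785). Cytosolic ribosomal protein genes were higher in 7 of 81 cases and lower in 8, with a median of 0.00 (19 higher without IFN-γ replicate 2, 12 higher with the replicate number as a block and 13 lower without IFN-γ replicate 3). Mitochondrial ones were higher in 17 of 78 cases and lower in 8 (4 or 5 without IFN-γ replicate 2 or IL-4 replicate 2 or 3), with a median of 0.14. The mitochondrial share of higher genes was near the 24.3% of all tested genes, and the share of lower ones was below the 26.3%.

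Counts of DNA replication and mitosis genes turned on single libraries. Of 28 tested genes 8 were higher with IL-4 and 1, the cyclin Ccnd2, was lower, near the 24.3% of all tested genes that were higher. The summed level was 4154, 3799 and 3791 CPM with IL-4 and 4371, 3223 and 1122 CPM with IFN-γ, against 5825, 5464 and 5505 CPM untreated. IFN-γ replicate 1 lay above the IL-4 libraries and replicate 3 far below them. Without IFN-γ replicate 1, 24 of the 28 genes were called higher, and without IFN-γ replicate 2, IL-4 replicate 1, IL-4 replicate 2 or IL-4 replicate 3 the number was 2, 1, 2 or 5. Without IFN-γ replicate 3 it was 8, with a median of 0.57 in place of 1.01, and with the replicate number as a block it was 17. With only the 6 libraries it was 1, or 2 with the block as well. The replication factor E2f1 (0.83 ± 0.17) kept its call in all settings, while the proliferation marker Mki67 had 261, 161 and 151 CPM with IL-4 and 224, 62.3 and 16.5 CPM with IFN-γ, against 413, 262 and 274 CPM untreated and did not pass (0.90 ± 0.63, adjusted p = 0.250).

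**Figure D5:**
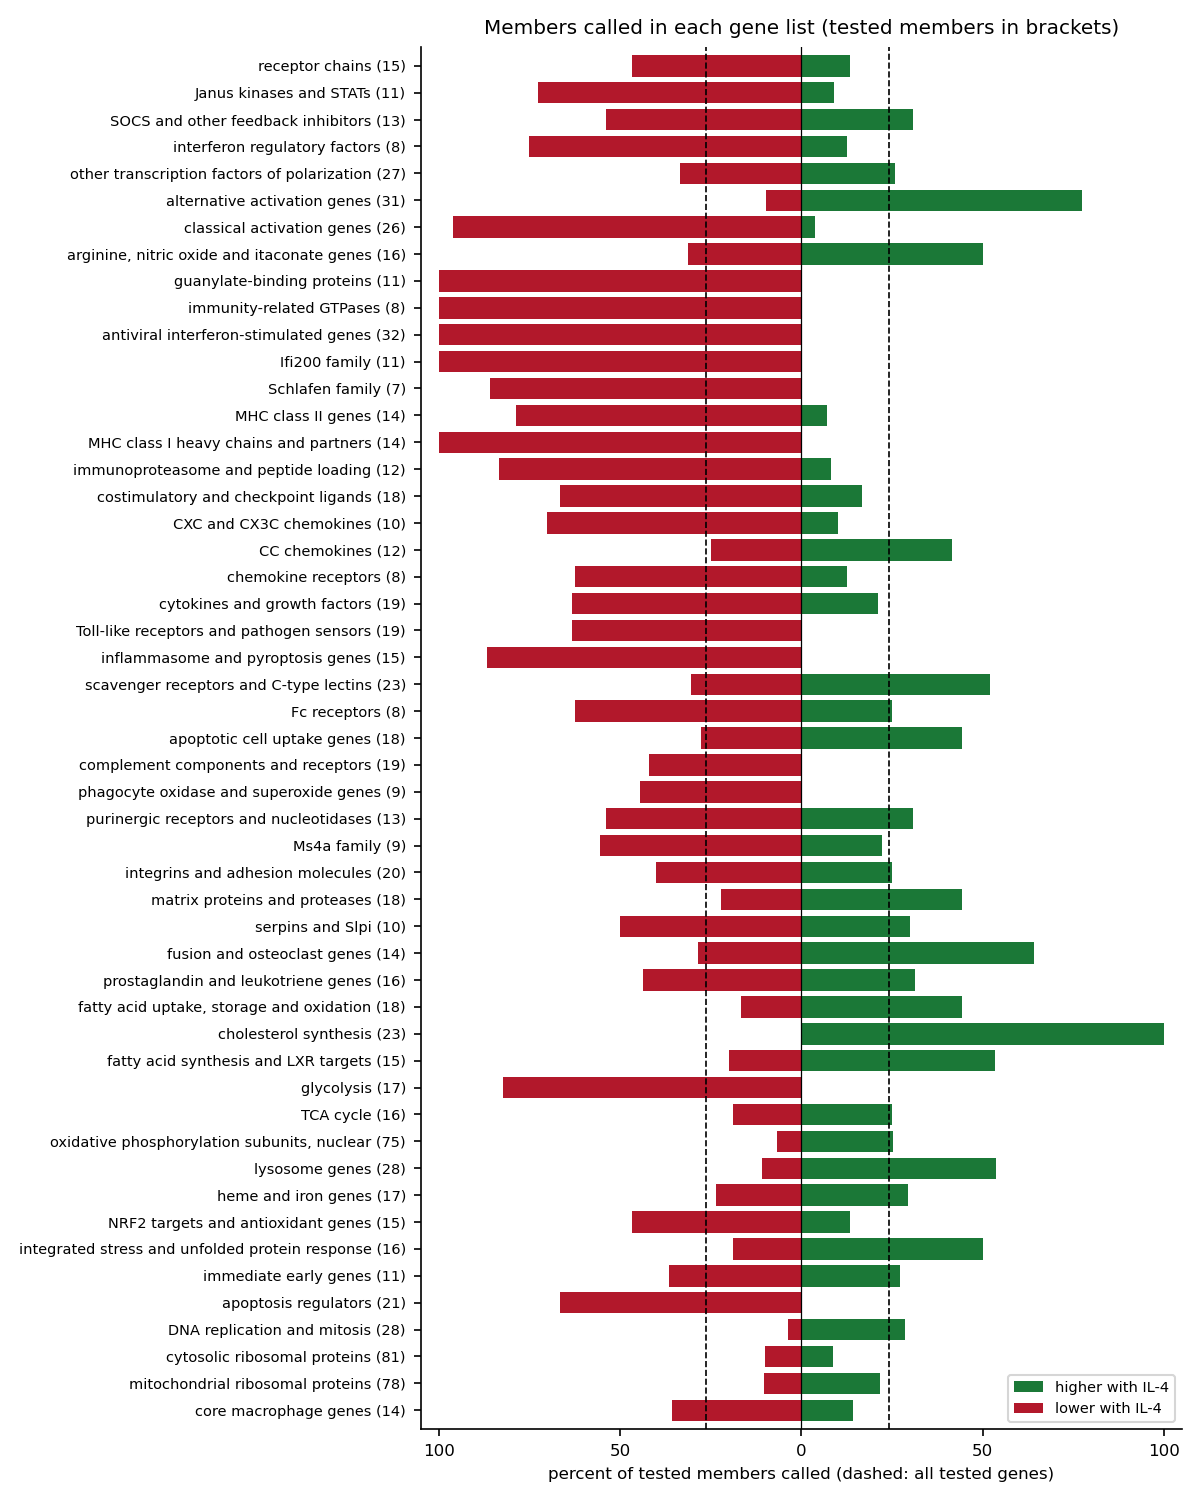
Share of the tested members of each gene list with at least 7 tested members that was called higher (right) or lower (left) with IL-4, in percent, with dashed lines at the 24.3% and 26.3% of all tested genes. Cholesterol synthesis reaches 100% on the right, and the guanylate-binding proteins, immunity-related GTPases, antiviral genes, Ifi200 family and class I genes reach 100% on the left.

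Markers of other cell types stood near the floor in most cases, but some differed between the cytokines. The T and NK cell marker Cd2, the 1 tested of 8, had 1.69, 1.96 and 1.29 CPM with IL-4 and 0, 0 and 0 CPM with IFN-γ, against 0.0717, 0.0656 and 0 CPM untreated, and was at least 29.5-fold higher, or at least 17.5-fold without IFN-γ replicate 2 (adjusted p = 1.02e-05). Klrb1c, an NK cell receptor that was not tested, held 12 counts with IL-4 and 1 with IFN-γ, against 10 untreated. All 3 tested dendritic cell markers of 8 were called, 2 higher with IL-4 and 1 lower. Cd209a, a lectin of dendritic cells, was 76.4-fold higher, 95% counting interval 20.8 to 636, or at least 30.3-fold without IFN-γ replicate 2 (adjusted p = 1.90e-04). Xcr1, a chemokine receptor of dendritic cells, was not tested because it failed the filter on low counts. Xcr1 held 0 counts with IL-4 and 403 with IFN-γ, against 2 untreated. In IFN-γ replicates 1 to 3, all 8 dendritic cell markers summed to 54.6, 60.5 and 24.1 CPM. The 3 tested ones summed to 41.7, 50.9 and 23.4 CPM, so the untested ones, Xcr1 among them, held little in IFN-γ replicate 3. Clec9a, used as a marker of dendritic cells, held 1 count with IL-4 and lay at 41.3, 50.6 and 23.1 CPM with IFN-γ, but its exons overlap those of another gene, so its counts are uncertain. Pf4, a platelet chemokine that macrophages also make, had 108, 85.02 and 112 CPM with IL-4 and 34.2, 34.5 and 11.5 CPM with IFN-γ, against 274, 139.8 and 239 CPM untreated (1.88 ± 0.33). Both cytokines lay below untreated, IFN-γ furthest. The platelet receptor subunit Gp1bb was higher too (10.02-fold higher, 95% counting interval 3.15 to 50.97, or 5.96-fold without IFN-γ replicate 2, adjusted p = 0.00134), so that 2 of 3 tested megakaryocyte and erythroid markers were called, but its exons overlap those of another gene. The defining genes Gp9, Hbb-bs and Hba-a1 were at 0 in the 6 libraries. The part of such cells in the other results was not tested. Exons of Batf2, Cfb, Ciita, Clec9a, Ctsd, Cxcl10, Cxcl16, Dclk1, Ddit3, Dusp1, Fpr2, Gas6, Gbp10, Gbp4, Gm49369, Gp1bb, H2-DMa, Hadha, Hif1a, Hk3, Idi1, Ifi47, Il18bp, Il2rg, Irf1, Irf7, Itgam, Jak1, Mmp12, Psmb9, Ptgs1, Pycard, Stat3, Stat5a, Stat6, Tap1, Tgm2 and Tgtp1 overlap those of another annotated gene, so their counts are uncertain, as are those of close relatives within the Gbp, Tgtp, Ifi200, Ly6, Serpina3, H2-Q and Chil families.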

How the data were processed

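RNA of 15 mouse macrophage cultures was sequenced after library preparation with a stranded TruSeq kit, per the labels' protocols. The deposited table holds counts per gene, which the authors made with STAR 2.7.0e, SAMtools 1.9 and featureCounts on GRCm38.p5, per the submitters' processing notes. Not given in the sources used here were its strand setting and annotation. The 25700 counted genes were matched to GENCODE M21 (GRCm38) for positions, with 25587 matched and 113 not.

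All 15 libraries were fitted in edgeR 4.0.16 (R 4.3.3) with a mean per group, TMM factors and edgeR's filter on low counts, and IL-4 minus IFN-γ was tested by quasi-likelihood with Benjamini-Hochberg adjustment at 0.05. SE is the log2 fold change over the square root of F. Where a group had 0 counts, the fold is a bound against 3 counts over the group, and with 1 to 3 counts it is a ratio with an exact 95% interval, which covers counting error only. The largest changes are the 12 called genes per direction by fitted fold with a mean of at least 1 CPM in the higher group and no overlap between the 6 libraries, passing over predicted genes and pseudogenes, and the level genes are the 6 called genes per direction with the largest difference in CPM per kb of exon. Members and gene lists were chosen with earlier results of these data known; 85 list members were not tested and 2 were not in the table, and some members are counted in their lists but not reported here by name. Examples were taken from the 4 list members of smallest p per direction or picked after their values were seen.

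Same-numbered IL-4 and IFN-γ libraries share a date in the column headings, whose meaning is not given in the sources used here. Their deviations from the group means correlated at 0.26, 0.29 and 0.17 across genes, all over 0.1, so the number was also fitted as a block. Alternatives were DESeq2 1.42.0, other scaling factors, other filters, the 6 libraries alone, the block and leaving out each library. On simulated counts for this contrast and 11883 genes, the fit recovered 18, 34, 47 and 49 of 50 genes changed 1.5-, 2-, 4- and 8-fold, with 4 false calls among 152. Only these genes were changed and no simulated library stood apart. In the data 50.6% of tested genes were called and IFN-γ replicate 3 stood apart, so the share of false calls does not carry over. Figures were drawn with Python 3.11.15 and matplotlib 3.10.9.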

Additional observations from a re-analysis of the deposited data

How the results depend on the processing

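The counts of called genes stayed within 1.5 times of 2892 higher and 3122 lower under all alternatives run. DESeq2 gave 2994 higher and 3188 lower, its size factors in edgeR 2891 and 3112, upper-quartile factors 3437 and 2645, no filter 2981 and 3061, a filter of 5 CPM in 3 libraries 2575 and 2797, and the 6 libraries alone 2243 and 2543. With the replicate number as a block, which compares libraries of 1 date, the counts were 3102 and 3267, and with the block in the 6 libraries alone 2290 and 2555. The block with all libraries ended no call on a gene the report names, and moved list counts by over 1.5 times to 17 higher and 2 lower DNA replication genes, 12 higher cytosolic ribosomal proteins and 1 higher neutrophil marker. Leaving out 1 library gave 2399 to 3110 higher and 2732 to 3146 lower. DESeq2 did not call Rbp4 (adjusted p = 0.0584). One gene turned: Ifngr2 was 0.30 (adjusted p = 0.0157) without IFN-γ replicate 3, against -0.03 with all libraries and -0.19 to 0.30 over the libraries left out.

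Upper-quartile factors, which shifted the median of all genes by 0.09, gave 33 higher oxidative phosphorylation subunits, 8 higher TCA genes, 28 higher and 3 lower mitochondrial and 13 higher and 4 lower cytosolic ribosomal proteins. In the 6 libraries alone the list counts that moved by over 1.5 times all fell, for example to 5 lower Janus kinases and STATs, and with the block as well 4 NRF2 targets were lower, 3 CC chemokines higher and 10 oxidative phosphorylation subunits higher. The cause of these shifts was not tested. With 3 libraries a group, changes under 2-fold were often missed in the simulation, so genes that did not pass may still differ.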
